A study of Arabidopsis thaliana with 27 samples.

Results

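A set of 62 Arabidopsis genes had a transcript signal near that of control plants after 8 h of heat and a low signal after 24 h of heat. They were drawn from 22746 probe sets of the ATH1 array by a rule on group means of log2 signal. The rule first kept the 13316 probe sets with 1 nuclear gene in the platform annotation that were outside the study's list of glycerolipid genes. Of these, 4577 had a highest group mean of at least 8 and a difference of under 0.5 between the control groups. The 62 members then had a difference from control of -1.5 or lower at Heat24hr, within 0.5 of 0 at Heat08hr and under 0.7 at Recovery24hr. A ceiling of 150 genes in the rule was not reached. The working description of the set, genes lowered only by long heat, did not hold for recovery. At Recovery08hr, 50 of the 62 were also lower. The rule set no limit on the difference from control at Recovery08hr, and this group entered it only through the highest group mean. The 62 are called here the late-heat genes.

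All plants were wild-type Col-0, grown on agar at 22 °C with 16 h of light and 8 h of dark. Heat of 38 °C began 3 h into the light phase, on plants 18 days old, and lasted 24 h, after which the plants went back to 22 °C. Heat08hr and Heat24hr were harvested 8 h and 24 h into the heat, at 18 and 19 days of age, and Recovery08hr and Recovery24hr 8 h and 24 h after its end, at 19 and 20 days (3 arrays each). Control08hr held 6 arrays of unheated plants, 3 at 18 days and 3 at 19 days, and Control24hr held 9 arrays, 3 each at 18, 19 and 20 days. The groups named 08hr were harvested 11 h after light onset and those named 24hr 3 h after it, so each treated group was compared with the control harvested at the same hour of the day. The study's methods call the arrays of a group biological replicates of aerial parts, and the tissue label says leaf. In such bulk material, fewer cells of a type and less RNA per cell cannot be told apart.

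Leaves carry out photosynthesis in the thylakoid membranes of the chloroplast, where photosystems capture light, an electron transport chain passes the electrons on to ferredoxin and NADP+, and an ATP synthase uses the proton gradient. The Calvin cycle in the stroma spends the ATP and NADPH to fix CO2. Most of these proteins are encoded in the nucleus, in some of the most abundant leaf transcripts, and photosynthesis is known as a heat-sensitive process. Among the late-heat genes, 10 had a name beyond their locus in the files or in the RefSeq annotation (assembly TAIR10.1), and 5 of those 10 (CURT1C, PSBY, TROL, PRK and ATPC1) are described first as thylakoid or Calvin cycle genes, a grouping made by hand after the members were known, with no share of such genes among all probe sets to set it against. The other 52 are given by locus alone and without a role. The 62 genes lay on all 5 chromosomes (20, 9, 11, 8 and 14 genes on chromosomes 1 to 5), and 0 pairs were neighbours among the protein-coding genes of that assembly.

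The array signal is a linear fluorescence intensity, in arbitrary units, and differences are given on its log2 scale, where -1 means halved relative to control. Percentages of control signal are these log2 differences turned back to the linear scale, not ratios of linear means. The trimmed mean signal of an array was 494 to 497 on all 27 arrays, whereas the median signal was 128 to 134 in Heat08hr, 120 to 131 in Heat24hr and 160 to 176 in the other 4 groups. Centring each array on its median moved the median difference of all probe sets to 0.25 at Heat08hr and 0.19 at Heat24hr. That of the late-heat genes moved from -0.31 to 0.06 at Heat08hr and from -1.82 to -1.40 at Heat24hr, where the limit was -1.5. After centring, 58 of the 62 were still within 0.5 of control at Heat08hr. The rule applied to median-centred values was met by 51 probe sets, of which 22 were among the 62. Their heat differences are therefore relative to the scale of each array. The small heat shock protein gene ATHSP22.0 was higher than control by 9.99 (SE 0.875) at Heat08hr and 8.69 (SE 0.525) at Heat24hr (limma adjusted p = 2.28e-05 and 3.10e-08), as the heat labels imply. It was still higher by 8.01 at Recovery08hr and 6.32 at Recovery24hr, so it does not tell heat from recovery. Of 7 probe sets on a keyword list of heat shock proteins and chaperones, 2 were called higher at Heat08hr and 5 at Heat24hr. The shares of all probe sets called higher were 8.38% and 13.9%. The keywords also matched BRK1 and CCS, whose names here mark neither a heat shock protein nor a chaperonin, and CCS was among the 5. The leaf markers chosen for the check had no named probe set, and neither had the other cell type markers apart from the guard cell gene FMA. FMA had a mean signal of 243 in Control08hr. RUBISCO ACTIVASE (RCA) and the antenna gene LHCB4.1 were not among these markers and came from a list of photosynthesis genes. They had mean signals of 27182 and 27496 in Control08hr.

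**Figure D1:**
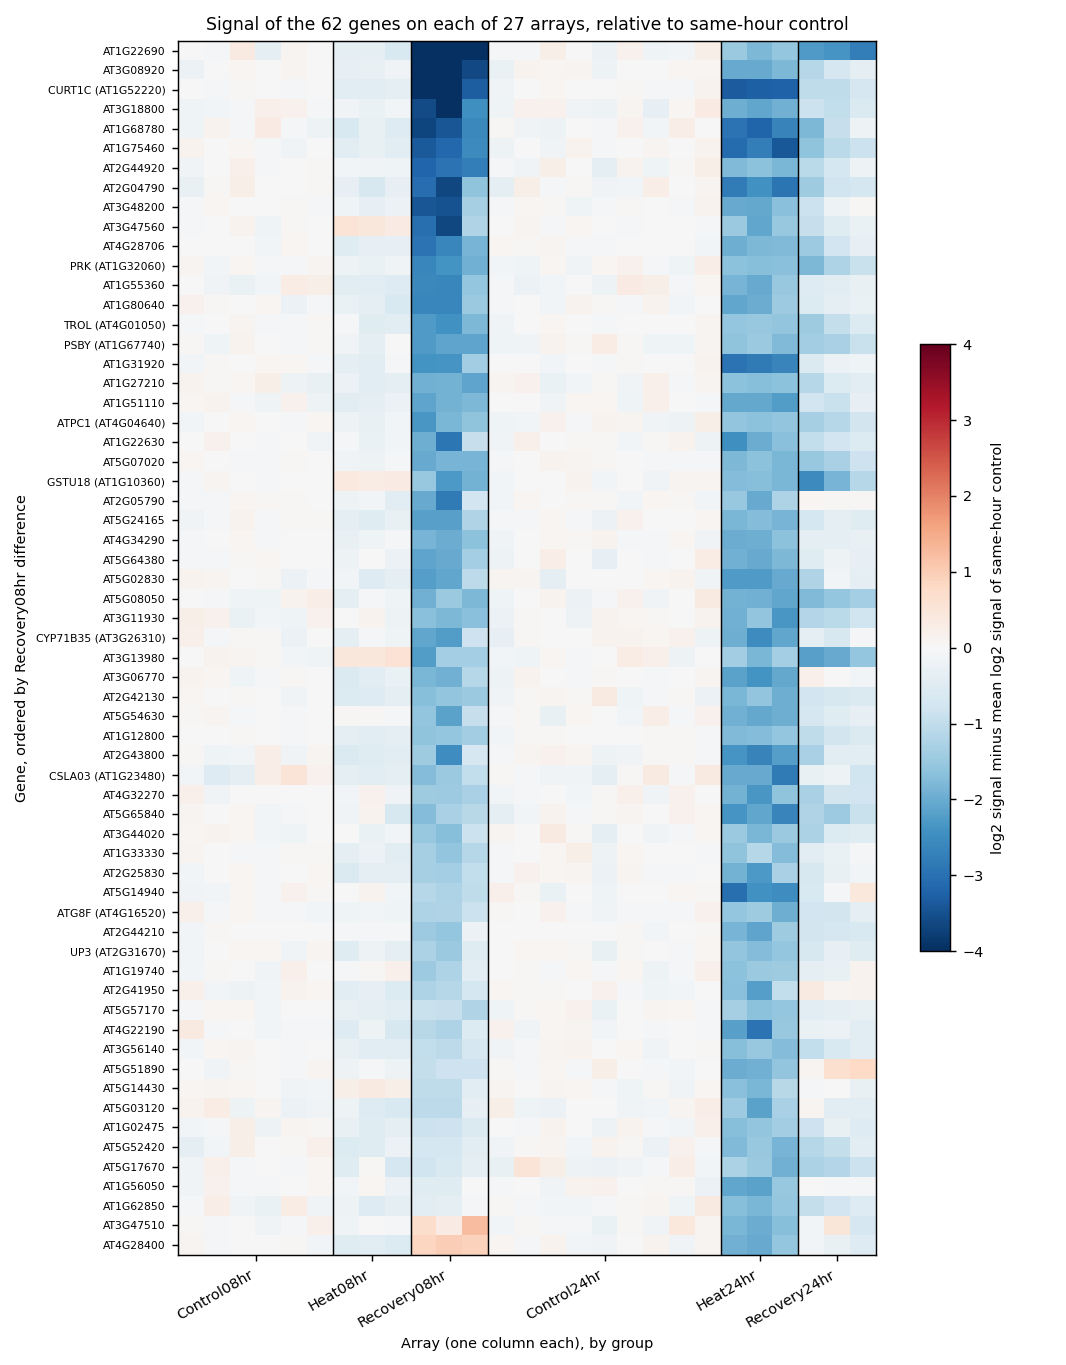
Signal of each of the 62 late-heat genes (rows, ordered by their Recovery08hr difference) on each of the 27 arrays (columns, by group), as log2 signal minus the mean log2 signal of the control group of the same clock time. Blue is below control and red above, with the colour scale ending at 4; the Heat24hr columns are blue in all 62 rows because the rule required it, and the 3 Recovery08hr columns are all below control in 59.

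At Heat24hr the late-heat genes differed from Control24hr by -3.27 to -1.501, with a median of -1.82, against -0.22 over all probe sets. At Heat08hr the same genes had a median of -0.31 (-0.13 over all probe sets), and 55 of them were below 0 (21 after median centring). These values chose the genes and are a description only. The curvature gene CURT1C was the lowest at Heat24hr, followed by AT1G75460 (-3.07), AT1G68780 (-2.95), AT1G31920 (-2.81) and AT2G04790 (-2.71). On the Heat24hr limit, the last gene inside was AT1G33330 (-1.501) and the first outside AT5G24890 (-1.495). On the Heat08hr limit they were AT2G43800 (-0.49) and AT4G18810 (-0.51), and on the Recovery24hr limit AT5G51890 (0.51) and AT5G65880 (0.87). On the limit between the control groups they were AT5G52420 (-0.50) and AT5G47390 (-0.51), and on that of brightness CSLA03 (8.11) and AT4G04955 (7.90). The Heat08hr limit alone kept out 518 probe sets, all the other limits being met, and the Recovery24hr limit alone kept out 2.

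Recovery08hr was compared with Control08hr to ask where the late-heat genes stood 8 h after the heat ended. Of the 62, 50 were lower, 0 were higher and 12 were not called (limma, Benjamini-Hochberg adjusted p under 0.05 over all probe sets and at least a 2-fold change). The same rule called 17.1% of all probe sets lower and 14.0% higher, and 15.4% lower and 18.9% higher of the 4577 that met the limits on brightness and controls. The limit on brightness took the highest of all group means, Recovery08hr among them. Some of the 4577 may thus have passed it only by a high signal at that time. The median difference of the late-heat genes was -1.68, with an interquartile range of -2.13 to -1.07, against -0.09 over all probe sets. In 58 genes the 3 Recovery08hr arrays all lay below the 6 Control08hr arrays, as they did in 23.5% of all probe sets, and in 2 genes they all lay above, as in 25.2%. The Control08hr arrays of this comparison also entered the Heat08hr limit of the rule, so the 2 contrasts share them. They entered the limit between the control groups as well. The Heat24hr limit rests on other arrays, but the limit between the control groups kept its Control24hr mean near that of Control08hr.

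The clock gene GI (GIGANTEA), whose transcript normally peaks late in the light phase, was far from its same-hour control at Heat24hr, Recovery08hr and Recovery24hr. It read 27.1 to 39.2 in Recovery08hr against 594 to 1296 in Control08hr, a difference of -4.78 (SE 0.242, limma adjusted p = 1.64e-06). In Heat24hr it read 982 to 1086 and in Recovery24hr 638 to 775, against 156 to 279 in Control24hr, differences of 2.41 and 1.86 (adjusted p = 3.18e-07 and 2.58e-05). At Heat08hr it differed by 0.45 (SE 0.222, adjusted p = 0.138). The harvest hour was thus matched, but outside Heat08hr the level of this clock gene was not. Its part in the values of the late-heat genes was not tested.

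For scale, 518 probe sets met every limit except that they were already at -0.5 or lower at Heat08hr. Of these, 306 were lower at Recovery08hr (59.1%) and 9 higher, with a median of -1.26. Another 964 probe sets met the brightness and control limits, stayed within 0.5 of control at both heat times and were under 0.7 at Recovery24hr. Of those, 78 were lower at Recovery08hr (8.09%) and 89 higher, with a median of 0.18. The late-heat genes had 80.6% lower. These shares are given side by side, since the groups were cut from the same arrays and the difference between them was not tested.

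Recovery08hr replicate 3 stood apart from the others. Over bright probe sets, the SD of log2 differences between replicates was 0.36 for replicates 1 and 2, but 0.62 and 0.72 for replicate 3 against each of them. The late-heat genes had a median difference from control of -1.79 and -1.85 in replicates 1 and 2 and of -1.20 in replicate 3, and 60, 60 and 59 of them lay below the control mean. Without replicate 3 the count of lower genes was 53, and without replicate 1 or replicate 2 it was 46.

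**Figure D2:**
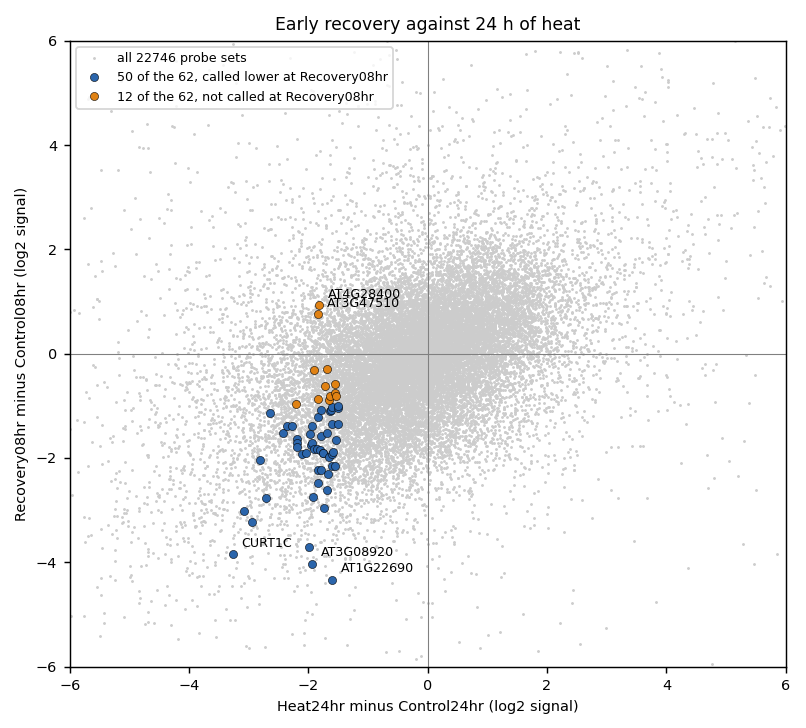
Difference of Recovery08hr from Control08hr against that of Heat24hr from Control24hr (log2 signal on both axes), with a grey point for each probe set inside the axes and larger points for the 62 late-heat genes, blue where called lower at Recovery08hr (50) and orange where not called (12). All but AT4G28400 and AT3G47510 lie below 0 on the vertical axis, and the horizontal position of the 62 was set by the rule.

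Among the late-heat genes with a name, CURT1C, PSBY, TROL, PRK and ATPC1 have a role in photosynthesis. Genes given by locus alone were not assigned a role. Each of the named genes CURT1C, PSBY, TROL, PRK and ATPC1 was lower at Recovery08hr than in Control08hr. Their differences were -3.84 to -1.92, with no overlap between the arrays of both groups. CURT1C (CURVATURE THYLAKOID 1C, AT1G52220) belongs to a family of small membrane proteins that bend the margins of stacked thylakoids. Its signal in Control08hr was 7013 at the lowest, 7371 at the median and 7475 at the highest. The Heat08hr arrays read 5327, 5335 and 5595, and the Recovery08hr arrays 390, 455 and 743. All 3 recovery arrays were far below the range of the other groups at that hour. CURT1C at Recovery08hr stood at 6.98% of control, a difference of -3.84 (SE 0.184, limma adjusted p = 1.31e-06).

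In Control24hr, CURT1C read 7147 to 8534 with a median of 7695, against 783, 819 and 826 in Heat24hr, or 10.4% of control. In Recovery24hr it read 3826, 3894 and 4868, which is 53.4% of control and still below the lowest control array. A pair of its relatives was measured by probe sets named in the files. CURT1A differed from control by -1.14 (SE 0.0999) at Recovery08hr and by -0.20 (SE 0.0809) at Heat24hr (adjusted p = 2.55e-05 and 0.0565). CURT1D was higher at Recovery08hr, by 1.42 (SE 0.0867, adjusted p = 3.93e-06), and differed by -0.39 at Heat24hr, short of the 2-fold limit.

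PSBY (AT1G67740), a small subunit of photosystem II, read 20604 to 25795 in Control08hr, with a median of 23343. Its Heat08hr arrays read 21168, 18219 and 22887, of which 2 lay inside the control range. At Recovery08hr the arrays read 4821, 5364 and 5429, a difference of -2.16 (SE 0.100, adjusted p = 1.14e-06). The replicates of PSBY at this time were close together and none reached the lowest control array. Signals in Heat24hr were 9550, 10403 and 8506, and in Recovery24hr 10880, 11780 and 15470, against 25499 to 35630 (median 29733) in Control24hr. PSBY thus had 32.8% of its control signal after 24 h of heat and 43.6% after 24 h of recovery.

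TROL (AT4G01050), a rhodanese-like thylakoid protein known for anchoring ferredoxin-NADP+ oxidoreductase, read 4474 to 5140 in Control08hr (median 4697) and 4467, 3403 and 3577 in Heat08hr. In Recovery08hr it read 980, 887 and 1374, a difference of -2.16 (SE 0.142, adjusted p = 5.71e-06). The Heat24hr arrays of TROL agreed closely, at 2132, 2150 and 2063, against 5657 to 6633 in Control24hr (median 6239). In Recovery24hr the arrays spread from 2319 over 3209 to 4232, all below the controls, and the mean log2 signal corresponded to 50.9% of control.

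PRK (AT1G32060), phosphoribulokinase, makes the sugar phosphate to which Rubisco adds CO2. Control08hr arrays gave it 20101 to 23192 (median 21472) and Heat08hr arrays 18905, 17932 and 19590, the highest of which was below the lowest control. Recovery08hr arrays gave 3520, 4139 and 5637, a difference of -2.31 (SE 0.150, adjusted p = 5.41e-06). In Control24hr PRK read 21928 to 29890 (median 23778), in Heat24hr 7853, 7533 and 7791, and in Recovery24hr 7036, 10456 and 13160. The lowest Recovery24hr array of PRK was below all 3 Heat24hr arrays, and the mean log2 signal of the group corresponded to 40.1% of control.

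ATPC1 (AT4G04640), the gamma subunit of the chloroplast ATP synthase, read 20102 to 23064 in Control08hr (median 21628). It gave 19051, 17555 and 20166 in Heat08hr and 4364, 6115 and 7093 in Recovery08hr, a difference of -1.92 at the latter (SE 0.150, adjusted p = 1.35e-05). Only 1 of the Heat08hr arrays reached the control range, and none of the Recovery08hr arrays did. In Heat24hr it read 7355, 7124 and 7359, and in Recovery24hr 8874, 9994 and 13217, against 19176 to 25741 (median 21557) in Control24hr. The 24 h groups of ATPC1 stood at 32.9% and 47.7% of control.

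**Figure D3:**
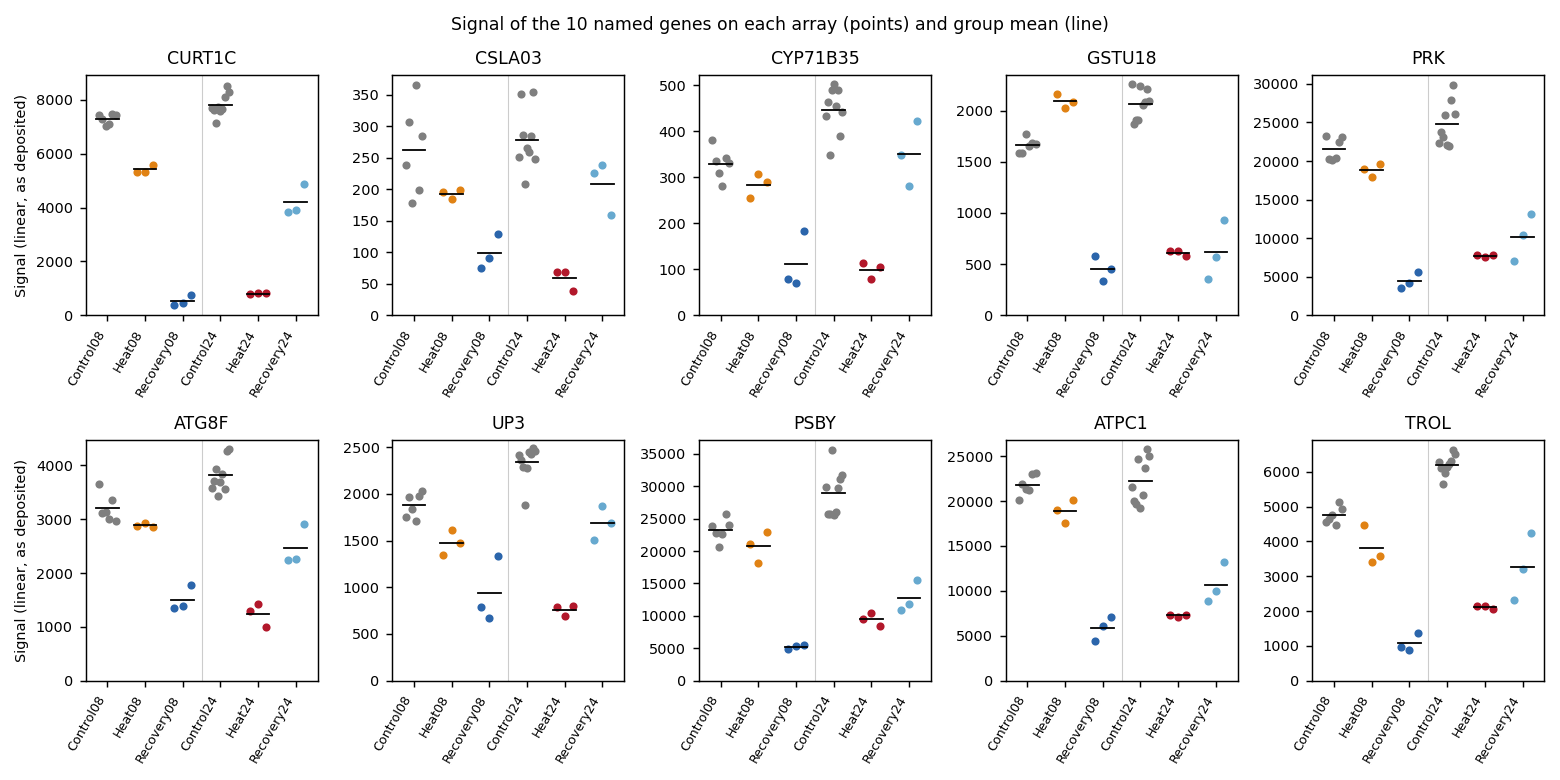
Signal (linear, as deposited) of the 10 late-heat genes with a name, with 1 point for each array and a line at each group mean; the 08hr groups stand left of the grey line and the 24hr groups right of it. In all 10 panels the Recovery08hr points lie below the control points of the same hour, as in 23.5% of all probe sets. The Heat24hr points do so too, but the rule required a low Heat24hr mean.

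A wider list of photosynthesis and chlorophyll genes, chosen by keywords in gene names, held 19 probe sets, 3 of them late-heat genes (CURT1C, PSBY and TROL). PRK and ATPC1 were not matched by its keywords. The 3 members were set by the rule at the other times, so the calls are given for the 16 outside the late-heat set. At Recovery08hr, 13 of the 16 were lower and 1 was higher, with a median of -1.70, where 17.1% of all probe sets were lower. At Heat24hr 4 of the 16 were lower and 0 higher, where 22.4% and 13.9% of all probe sets were, and the median was -0.67. At Heat08hr 1 was lower and 0 higher, where 16.3% and 8.38% of all probe sets were. At Recovery24hr 4 were lower and 1 higher, against 7.36% and 6.2% of all probe sets.

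The genes of this list outside the late-heat set lay on several sides of its limits. LHCB4.2, an antenna protein of photosystem II, was lower at both Heat24hr (-2.02) and Recovery08hr (-3.77), but its difference at Heat08hr was 0.59, and its mean signals of 13552 in Control08hr and 26632 in Control24hr also put it outside the limit on the controls. The chlorophyll synthesis gene CHLI2, a magnesium chelatase subunit, was already lower at Heat08hr (-1.14). PORB, a protochlorophyllide oxidoreductase, differed by -0.09 at Heat24hr, was lower by 4.76 on the log2 scale at Recovery08hr and was higher by 1.94 at Recovery24hr, and its control signal was 12998 in Control08hr against 1439 in Control24hr. LHCB4.1 and RCA differed by -0.52 and -0.87 at Heat24hr. Of these, LHCB4.1 was called lower at Recovery08hr (-1.58, adjusted p = 9.03e-06) and RCA, at -0.85, missed the 2-fold limit.

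**Figure D4:**
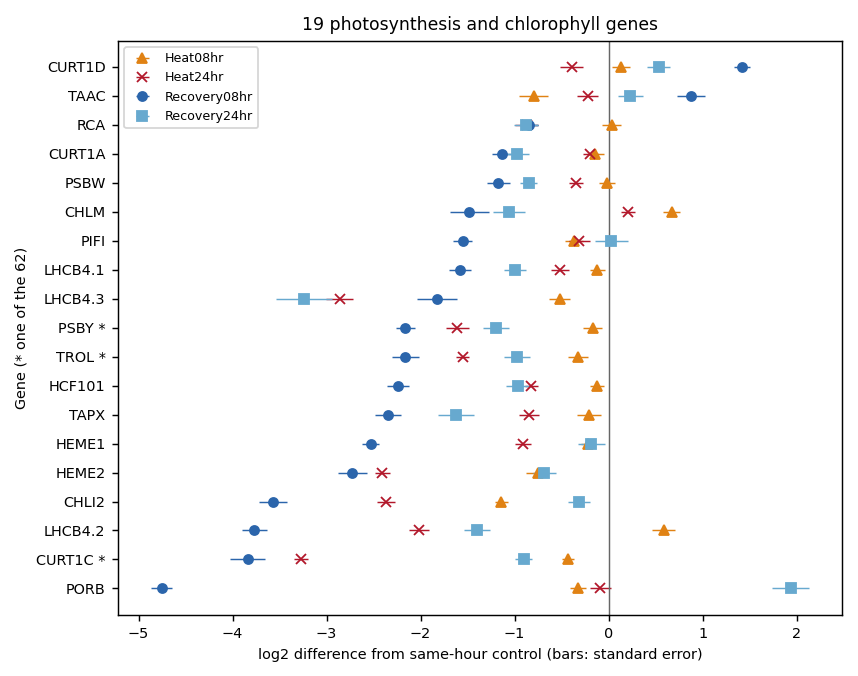
Differences from the control of the same hour (log2 signal, horizontal axis) for the 19 photosynthesis and chlorophyll genes in the 4 treated groups, with bars for the standard error of the limma fit and stars on the 3 late-heat genes. The Recovery08hr points lie left of -1 in 16 genes, and the Heat24hr points do in 7, of which the 3 starred ones were set by the rule.

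Of the remaining named genes, GSTU18 (AT1G10360) encodes a glutathione transferase of the tau class, enzymes that couple glutathione to other compounds. Its Heat08hr arrays read 2166, 2023 and 2086, all above the Control08hr range of 1583 to 1774 (median 1666). By Recovery08hr they read 576, 339 and 451, a difference of -1.90 (SE 0.155, adjusted p = 1.68e-05). The mean log2 signal of GSTU18 was no nearer to control at Recovery24hr than at Heat24hr. Its Heat24hr arrays read 626, 627 and 576 and its Recovery24hr arrays 352, 570 and 934, against 1865 to 2256 (median 2080) in Control24hr, which left it at 29.5% and 27.7% of control.

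CYP71B35 (AT3G26310), a cytochrome P450, read 280 to 380 in Control08hr (median 333), 256, 308 and 289 in Heat08hr and 78.4, 69.9 and 184 in Recovery08hr. Replicate 3 read more than the other replicates at Recovery08hr but stayed under the controls, and the difference was -1.71 (SE 0.285, adjusted p = 0.001). In Heat24hr it read 114, 77.9 and 104, and in Recovery24hr 349, 281 and 422, of which 1 lay inside the Control24hr range of 349 to 502 and 1 just under it. Among the other 75 probe sets of a keyword list for cytochromes P450, glycosyltransferases and secondary metabolism, 9 were lower and 16 higher (21.3%) at Recovery08hr, against 17.1% and 14.0% of all probe sets. At Heat24hr 24 were lower (32.0%) and 7 higher (9.33%), against 22.4% and 13.9%.

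CSLA03 (AT1G23480) belongs to the cellulose synthase-like A family, which makes mannan polysaccharides of the cell wall. Its control arrays spread widely, from 178 to 366 in Control08hr (median 262) and from 208 to 354 in Control24hr (median 266). Recovery08hr arrays read 75.9, 91.6 and 130, a difference of -1.40 (SE 0.264, adjusted p = 0.00205), and Heat24hr arrays 68.8, 68.8 and 39.0. At Recovery24hr it read 225, 239 and 159, with 2 arrays inside the control range. The other 45 probe sets of a cell wall keyword list had 9 lower (20.0%) and 7 higher (15.6%) at Recovery08hr, shares near the 17.1% and 14.0% of all probe sets. At Heat24hr 20 were lower (44.4%) and 6 higher (13.3%), against 22.4% and 13.9%.

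ATG8F (AT4G16520), a ubiquitin-like protein that is coupled to the membrane of the forming autophagosome, read 2971 to 3654 in Control08hr (median 3117) and 1344, 1394 and 1780 in Recovery08hr, a difference of -1.10 (SE 0.123, adjusted p = 0.000103). Its Heat24hr arrays read 1299, 1430 and 989, and its Recovery24hr arrays 2237, 2268 and 2913, all under the Control24hr minimum of 3431. UP3 (AT2G31670) read 785, 676 and 1340 in Recovery08hr against 1713 to 2035 in Control08hr (median 1903). That difference was -1.07 (SE 0.201, adjusted p = 0.00198), and it fell short of the 2-fold limit without Recovery08hr replicate 1 (-0.98) or replicate 2 (-0.87).

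All 10 named genes were thus lower at Recovery08hr, as were 40 of the 52 given by locus alone. The lowest differences at this time belonged to AT1G22690 and AT3G08920. AT1G22690 read 151, 144 and 105 in Recovery08hr, against 2042 to 3406 in Control08hr (median 2661) and 2069, 2015 and 1747 in Heat08hr. Its difference was -4.33 (SE 0.179, adjusted p = 7.6e-07), or 4.96% of control. After 24 h of heat AT1G22690 had read 1037, 841 and 987, or 32.8% of control, so that its distance from control was greater early in recovery than at the end of the heat.

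AT3G08920 showed the same order. It read 105, 149 and 193 in Recovery08hr against 1988 to 2547 (median 2391) in Control08hr, a difference of -4.03 (SE 0.184, adjusted p = 1.09e-06), and 459, 461 and 534 in Heat24hr against 1528 to 2036 (median 1947) in Control24hr, a difference of -1.94. AT3G18800 read 26.8, 9.29 and 57.9 in Recovery08hr against 283 to 369 in Control08hr (-3.72, SE 0.471, adjusted p = 0.000206), with a wide spread between replicates at these dim signals. AT1G68780 and AT1G75460 followed, at -3.23 (SE 0.237) and -3.01 (SE 0.171). Among the genes lowest at Heat24hr, AT1G31920 and AT2G04790 were also lower at Recovery08hr, by 2.04 and 2.77 on the log2 scale.

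In all, 22 late-heat genes were farther below control at Recovery08hr than at Heat24hr, and 40 were nearer to it or above it. The Recovery08hr difference was lower than the Heat24hr difference by 1 or more in 4 genes (AT1G22690, AT3G08920, AT3G18800 and AT2G44920) and higher by 1 or more in 7. These 2 differences come from different clock times and different control arrays, and the change between them was not tested. AT5G14940 was one of the 7: it read 36.7, 54.5 and 53.1 in Heat24hr against 246 to 338 in Control24hr, a difference of -2.64, and 105, 99.2 and 115 in Recovery08hr against 210 to 264 in Control08hr, a difference of -1.13 (SE 0.108, adjusted p = 4e-05).

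The 12 late-heat genes not called at Recovery08hr were not alike. Of these, 8 had an adjusted p under 0.05 with a difference between -0.96 and -0.59, short of 2-fold, among them AT4G22190 (-0.96), AT5G51890 (-0.86), AT5G52420 (-0.61) and AT5G17670 (-0.59). The genes nearest 0 were AT1G62850 and AT1G56050. AT1G62850 read 377, 399 and 499 in Recovery08hr against 429 to 631 in Control08hr (-0.29, SE 0.164, adjusted p = 0.171). AT1G56050 read 722, 731 and 1024 against 925 to 1156 (-0.32, SE 0.138, adjusted p = 0.0831). In both genes 1 recovery array lay inside the control range.

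AT4G28400 and AT3G47510, singled out after their values were seen, went the other way. AT4G28400 read 1031, 1116 and 1077 in Recovery08hr, all above the 518 to 601 of Control08hr (median 567), a difference of 0.93 (SE 0.0875, adjusted p = 3.64e-05). It had read 405, 419 and 384 in Heat08hr and 191, 177 and 248 in Heat24hr, against 649 to 799 in Control24hr. AT3G47510 read 422, 322 and 606 against 236 to 298 (median 254), a difference of 0.75 (SE 0.186, adjusted p = 0.0083). Both had an adjusted p under 0.05 and missed the 2-fold limit.

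By Recovery24hr the late-heat genes had a median difference of -0.66, against -0.07 over all probe sets. The rule set only an upper limit there, so these values are a description. The difference was within 0.5 of control in 24 genes, -1 or lower in 12 and above 0 in 4, and it was higher than the Recovery08hr difference in 56 genes. Of the 50 genes lower at Recovery08hr, 18 were above -0.5 at Recovery24hr, 21 lay between -1 and -0.5, and 11 were still at -1 or lower.

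The genes lowest at Recovery24hr, named after their values were seen, were AT1G22690 (-2.46), AT3G13980 (-1.91), GSTU18 (-1.85) and AT5G08050 (-1.55). AT1G22690 read 603, 561 and 430 at this time against 2472 to 3412 in Control24hr. AT3G13980 read 71.3, 79.9 and 110 against 280 to 390, and, like GSTU18, it had been above control at Heat08hr, with 390, 392 and 422 against 251 to 317. AT5G08050 read 3180, 3688 and 4141 in Recovery24hr and 2868, 2816 and 2556 in Heat24hr, against 9018 to 13870 in Control24hr. The Recovery24hr arrays of these genes did not overlap with their controls, but the genes were picked as the lowest at this time. The share of all probe sets without overlap at Recovery24hr was not counted.

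At the other end, AT5G51890, AT2G41950, AT2G05790 and AT3G06770 were above 0 at Recovery24hr. AT5G51890 read 1026, 1469 and 1671 against 877 to 1126 in Control24hr, so that 1 array lay inside the control range and 2 above it, a difference of 0.51. AT2G05790 read 3601, 3492 and 3555 against 3126 to 3617, inside the control range on all 3 arrays, after 1194, 835 and 1457 in Heat24hr. At Recovery08hr it had read 908, 519 and 2165 against 3516 to 3904, a difference of -1.88 (SE 0.367, adjusted p = 0.00246), with replicate 3 well above the others. AT3G06770 read 1017, 875 and 804 against 766 to 973, after 198, 168 and 209 in Heat24hr.

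**Figure D5:**
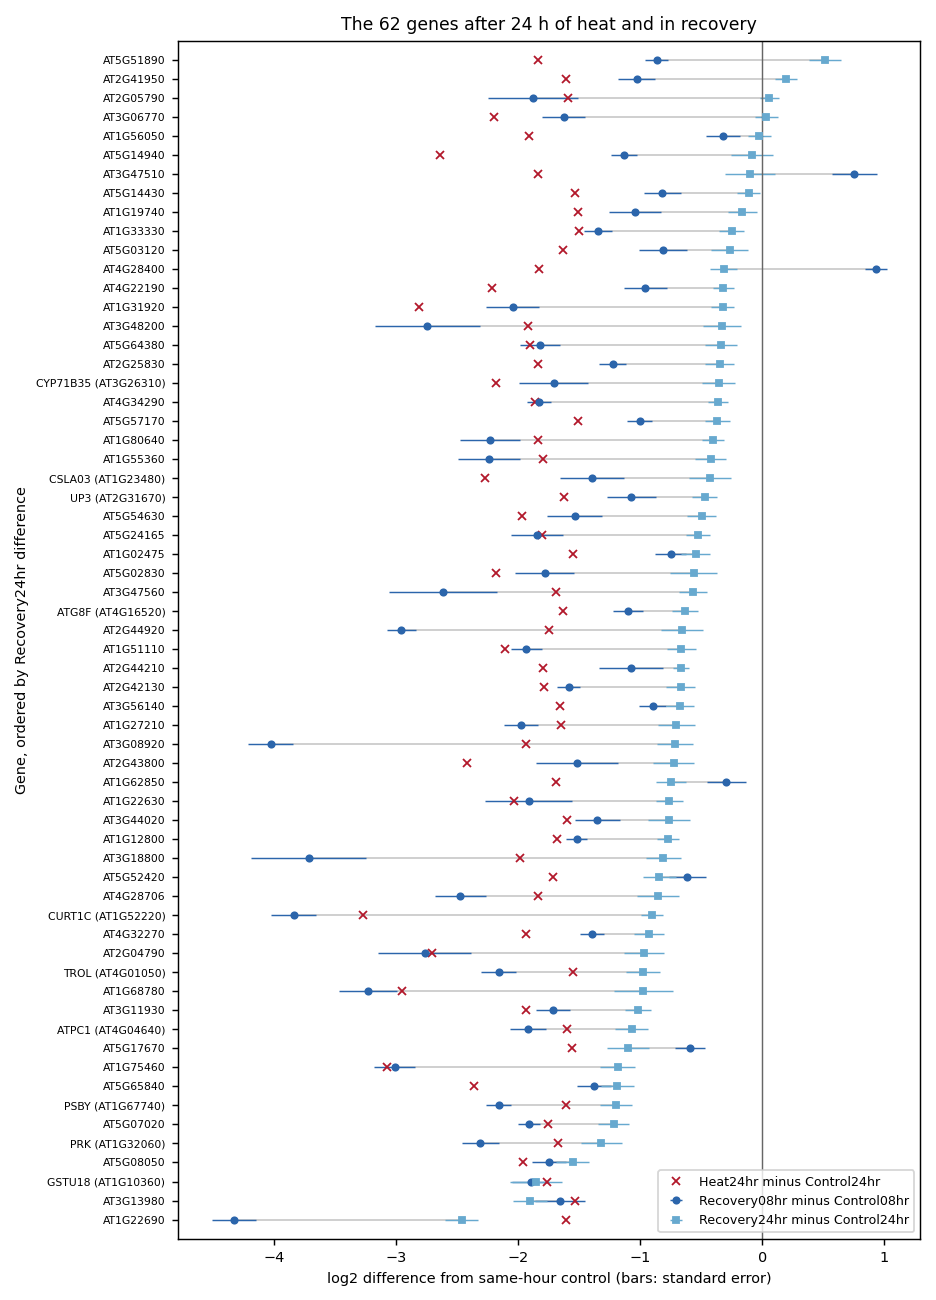
Differences of the 62 late-heat genes from the control of the same hour (log2 signal, horizontal axis), ordered by the Recovery24hr value, with crosses for Heat24hr, circles for Recovery08hr and squares for Recovery24hr, and bars for the standard error of the limma fit at both recovery times. The squares run from -2.46 to 0.51, and the circles lie left of 0 in all but 2 genes.

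The calls at Recovery08hr fell on bright and on dim probe sets, and the shares of all probe sets of like brightness were not counted. Of 38 late-heat genes with a mean control signal of at least 1000, 31 were lower, with a median of -1.76, and of the 24 under 1000, 19 were lower, with a median of -1.58. The genes nearest the 2-fold limit among those called were AT5G57170 (-1.002), AT2G41950 (-1.03), AT1G19740 (-1.04), UP3 (-1.07), AT2G44210 (-1.08) and ATG8F (-1.10). In AT2G44210, replicate 3 read 1507 in Recovery08hr, near the lowest control array of 1657, while replicates 1 and 2 read 644 and 614. With only the Control08hr arrays of the same age, its adjusted p was 0.0687. Each of these genes except ATG8F lost its call under at least 1 alternative run, and AT4G22190 and AT5G51890, not called above, gained one after quantile normalization (-1.14 and -1.06).

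The control groups pooled plants of different age, and this was tested within each group. Between 18 and 19 days in Control08hr, 0 of the 62 genes were called by limma, as were 0.0% of all probe sets. An unadjusted p under 0.05 was found in 1 of the 62 and in 4.64% of all probe sets. Over 18, 19 and 20 days in Control24hr, 0 were called, again with 0.0% of all probe sets. Here 0 of the 62 had an unadjusted p under 0.05, against 4.80% of all probe sets. With 3 arrays at each age, small differences between ages could be missed. The farthest apart at 18 and 19 days was CSLA03, by 0.64 on the log2 scale. By the rule, the control groups themselves lay within 0.5 of each other, and 46 of the 62 genes had the lower mean in Control08hr.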

How the data were processed

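Aerial parts were profiled on 27 ATH1 arrays (Affymetrix). The deposited intensity is a linear MAS5 signal with a lowest value of 1, made by the authors with GeneSpring version 12; how its trimmed means came to be nearly equal is not given in the sources used here. The platform annotation listed 14016 of 22746 probe sets, 13513 with 1 gene and 503 with several, and 13436 matched RefSeq (TAIR10.1). The rule left out 227 probe sets on the study's glycerolipid list. Members and lists were chosen with earlier results of these data known.

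Groups were compared on log2 signal by limma 3.58.1 (R 4.3.3; lmFit, eBayes), fitting only both groups compared, with ages pooled as the methods did, and adjusting over all probe sets. Calls needed an adjusted p under 0.05 and a 2-fold change. Because the differences at Heat08hr, Heat24hr and Recovery24hr served the rule, members were tested only at Recovery08hr and between control ages. The number of arrays limits the precision. Named members were the 10 lowest at Heat24hr; at Recovery08hr, the 6 lowest and 6 highest called and the 3 uncalled nearest 0 whose mean signal reached 500; the 3 brightest; up to 4 per gene list; and those at the limits. Members with a gene name, above control at Recovery08hr, or at either end of Recovery24hr were added after values were seen. Alternatives covered controls, fits, scaling, filters, a pseudocount of 16 and left-out arrays. The fit was tested on simulated data. Python 3.11.15 (pandas 2.3.3, numpy 2.4.6, matplotlib 3.10.9) made tables and plots.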

Additional observations from a re-analysis of the deposited data

Results flagged for a closer look

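Among 74 control groups of the named late-heat genes, 7 held 1 array far from the rest by Dixon's criterion, where chance gives about 1 in 20. On the first array of 18-day-old Control08hr plants, AT4G22190 read 1544 (the others 1125 to 1203), AT3G08920 read 1988 (2362 to 2547) and AT2G44210 read 1657 (1777 to 1847). On the second array of 19-day-old Control24hr plants, AT5G51890 read 1126 (877 to 999) and UP3 (AT2G31670) read 1880 (2280 to 2489). On arrays of 20-day-old Control24hr plants, AT2G44210 read 2257 on the first (2380 to 2499) and AT1G62850 read 873 on the third (601 to 728). Without the first 18-day array, the count of late-heat genes lower at Recovery08hr was 49.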

How the results depend on the processing

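The 50 late-heat genes lower and 0 higher at Recovery08hr (limma; the 2 genes above control had an adjusted p under 0.05) became 58 lower and 2 higher with no fold limit. Shares of all probe sets called under this and the other alternatives below are not given here. The other alternatives gave 48 to 53 lower and 0 higher, with age-matched controls (48), all 27 arrays in 1 fit (50), quantile normalization (53), median centring (49), log2(signal + 16) (49), a filter at a mean signal of 100 (50) or a plain test per probe set (50). With the replicate block it was 50 lower and 0 higher. Replicate numbers were not used to pair the arrays in the main fit. Deviations of same-numbered Recovery08hr and Control08hr arrays were correlated at 0.02, 0.09 and 0.07, and those of differently numbered arrays at -0.09 to 0.05. These values do not settle whether the numbers mark pairs. Leaving out 1 array at a time gave 46 to 53 lower and a median of -1.86 to -1.49. The rule itself was met by 51 probe sets after median centring, 22 of them shared (35.5% of the 62, 43.1% of the 51), by 54 after quantile normalization (47 shared), and by 56 to 70 when 1 treated array was left out. Chosen and tested after centring, 46 of 51 were lower, and after quantile normalization 47 of 54, both added after seeing the data. The 0 age calls stayed 0 under each alternative run. Of 666 values of 37 named genes, 0 changed direction, 17 lost and 3 gained the call. The losses were in AT5G57170, AT2G44210, AT2G41950, AT1G19740 and UP3, and the gains in AT4G22190 and AT5G51890. With 3 arrays per treated group, differences near 2-fold were the least certain.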
